A study of Drosophila melanogaster with 4 samples.

Results

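The gustatory receptor (Gr) genes of Drosophila melanogaster were examined for summits of exex-GFP binding in embryos. They were the protein-coding genes on the main chromosome arms whose symbols start with Gr followed by a number, which gave 60 genes of 13945. The choice used gene names and no measured value, but it was made with earlier results of these data known. The material was whole embryos, 6 to 24 h old and of unrecorded sex, from 1 transgenic line in which exex carries GFP at its C-terminus. Chromatin was sonicated to fragments of 200 to 800 bp, precipitated with an anti-GFP antibody and sequenced. The exex protein is a homeodomain transcription factor related to vertebrate HB9 and is known for its part in motor neuron identity. The 4 libraries were labelled as biological replicates and formed 1 group. No second condition was part of the design, so results are counts, shares and distances over genes, without a test between conditions. Neither the insertion site nor the copy number of the fusion gene is given in the sources used here. Whole embryos mix many cell types, so binding in fewer cells and weaker binding in each cell cannot be told apart.

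Insect gustatory receptors are membrane proteins that form ligand-gated ion channels, most of them in taste neurons of the larva and the adult. Sugar receptors drive feeding, bitter receptors drive avoidance, and Gr21a and Gr63a together detect carbon dioxide. Many of the genes are short and lie in tandem clusters.

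The authors' list of peaks that passed the irreproducible discovery rate (IDR) filter held 7909 peaks, each with a summit and a signal value by which peaks were ranked from 1, the strongest. Each replicate list held 30000 peaks, of which the 7909 with the highest signal were used unless the complete list is named. Between 23.2% (replicate 4) and 46.2% (replicate 3) of the peaks in a replicate list had a q-value under 0.01. Read depth is unknown. The exex gene itself had 8 IDR summits in its body and the 5000 bp on each side. Since the authors derived the IDR list from the replicates, a replicate's values are not independent of it.

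No IDR summit lay inside the body of any of the 60 Gr genes. Genes of like length would give 5.84 such genes, and 18.1% of all protein-coding genes had a summit in the body. The number for genes of like length adds up, over the Gr genes, the share of genes with a summit among the genes of similar extended length, with all genes divided into 20 length classes. The highest-signal peaks of each of the 4 replicates also placed no summit in a Gr body, against 5.74, 5.53, 5.97 and 7.11 for genes of like length and shares of 18.2%, 17.9%, 18.2% and 19.4% of all genes in replicates 1 to 4. The annotated bodies of the family thus held no summit in the IDR list and in the highest peaks of all 4 libraries.

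With 5000 bp added on each side, 22 of the 60 Gr genes (36.7%) had at least 1 IDR summit. Genes of like length would give 32.8 (54.6%), and 55.4% of all genes had one. The replicates gave 20, 24, 22 and 26 Gr genes, against 32.5, 31.0, 32.8 and 36.6 for genes of like length. The Gr count lay below the count for genes of like length in each of the 4 replicates. Over all genes the shares were 55.0%, 53.2%, 55.3% and 60.3% in replicates 1 to 4. The share of Gr genes averaged 38.3% ± 4.3 (SD, n = 4), and the share of all genes averaged 56.0% ± 3.04 (SD, n = 4). Both shares come from the same 4 lists, so the SDs describe variation between libraries and not between genes. Each of the 4 replicates had a summit in the window, not always the same one, for 18 Gr genes. Genes of like length would give 26.6, and 45.8% of all genes had one in each replicate. No replicate had one for 31 of the 60 Gr genes, against 32.9% of all genes. When the IDR peaks were limited to those with an overlapping highest-signal peak in each of 3 replicates, the count was 14 Gr genes without replicate 3, against 25.2 for genes of like length, and 15, 15 and 16 without replicates 1, 2 and 4.

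Set against genes of like length, the Gr count was lowest close to the genes. Within 2000 bp of the body, 9 Gr genes (15.0%) had an IDR summit, against 23.6 (39.4%) for genes of like length and 42.0% of all genes. Within 10000 bp, 32 Gr genes (53.3%) had one, against 41.0 (68.3%) for genes of like length and 67.8% of all genes. The bars of genes with a summit by window show the Gr share climbing with the window and staying below both other shares. The window of body and 5000 bp held a median of 3 transcription start sites (TSSs) of other protein-coding genes for Gr genes and 3 for all genes. That count includes TSSs of neighbouring Gr genes, so it does not show how dense genes outside the family were. For 23 of the 60 Gr genes, no TSS of a gene outside the family lay within 5000 bp of a start.

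**Figure D1:**
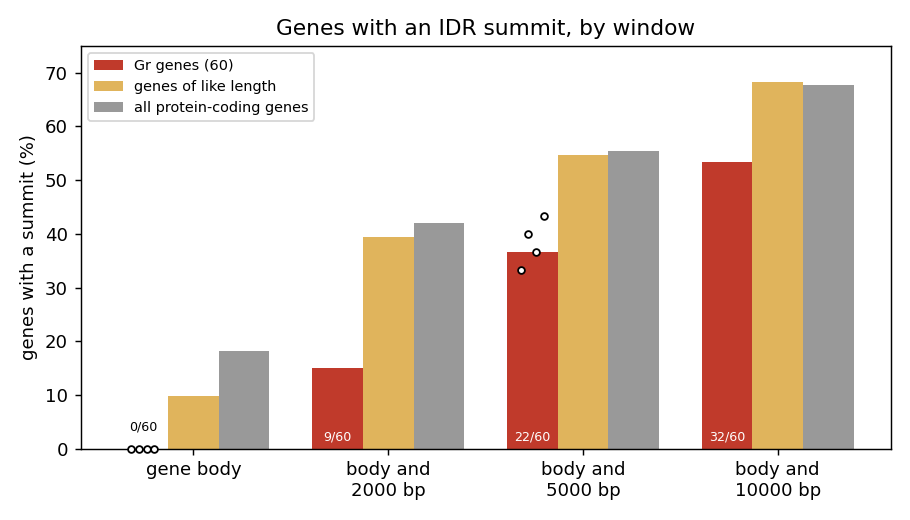
The share of genes (%) with an IDR summit in the body alone and in the body with 2000, 5000 or 10000 bp on each side, for the 60 Gr genes, genes of like length and all protein-coding genes; open circles are the Gr shares in the highest peaks of the 4 replicates, drawn for the body and for 5000 bp. The Gr bars stand at 0, 15.0, 36.7 and 53.3%, each below the bars for genes of like length at 9.74, 39.4, 54.6 and 68.3%.

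At their own starts the Gr genes carried few summits. An IDR summit lay within 1000 bp of an own TSS for 2 Gr genes, Gr64a and Gr10a, against 15.1 for genes of like length and 28.2% of all genes. Gr starts are often annotated at the first coding base, with no 5′ UTR, and among starts of that kind 1 of 41 Gr starts (2.44%) had a summit within 1000 bp, against 31 of 522 starts of all genes (5.94%). The remaining starts had one in 1 of 31 cases for Gr genes (3.23%) and in 29.8% of cases for all genes. The replicates had 3, 4, 2 and 3 such Gr genes, while 27.5%, 26.0%, 28.0% and 32.2% of all genes had one. The mean over replicates was 3.0 ± 0.816 Gr genes, against 15.3 ± 1.88 for genes of like length (SD, n = 4 each). In the profile of summits around gene starts, the first 2000 bp downstream of the 60 Gr starts held 0 summits, against 0.204 per gene over all genes. The 2000 bp upstream held 0.0833 summits per Gr gene and 0.307 per gene over all genes. Between 2000 and 4000 bp upstream the order turned, with 0.25 summits per Gr gene and 0.199 per gene over all genes. The 15 summits in that stretch include ones counted more than once, since neighbouring Gr genes share summits.

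**Figure D2:**
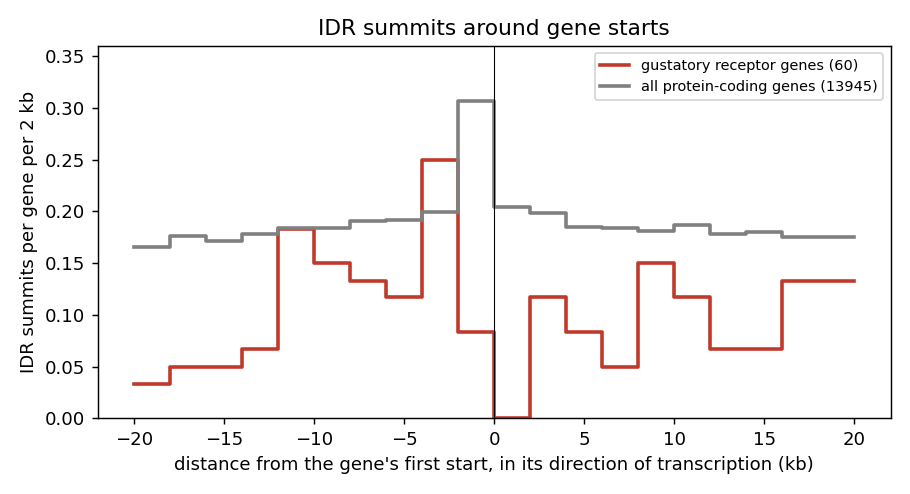
IDR summits per gene in bins of 2000 bp, by distance (kb) from the gene's first start in its direction of transcription, for the 60 Gr genes and for all 13945 protein-coding genes. The Gr line is at 0 just downstream of the start, where the line for all genes is at 0.204, and reaches 0.25 in the bin from 4000 to 2000 bp upstream.

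The distance from a Gr start to the nearest IDR summit had a median of 9638 bp (quartiles 3372 and 48190 bp), against 5025 bp (622 and 16660 bp) over all genes. It ranged from 300 bp at Gr10a to 202233 bp at Gr36a. The median in replicates 1 to 4 was 11676, 9336, 9659 and 9315.5 bp, a mean of 9997 ± 1130 bp (SD, n = 4). With the IDR peaks limited to those found in each of 3 replicates, it was 20516 bp without replicate 1, 2 or 3 and 13474 bp without replicate 4. The nearest summit was over 20 kb away for 24 Gr genes (40%), against 21.6% of all genes, and over 50 kb away for 15 Gr genes (25.0%), against 7.99% of all genes. The genes differed widely among themselves, as the plot of distances by gene shows. The cluster Gr36a, Gr36b and Gr36c was the most remote, at 202233, 200079 and 198513 bp. In replicate 2 a summit lay 16821 bp from Gr36a, while the other replicates had their nearest at 192062, 202230 and 202215 bp. The clusters Gr58a to Gr58c (81946 to 85144 bp) and Gr22a to Gr22d (53126 to 57682 bp) also had no IDR summit within 50 kb. Genes of a cluster share their surroundings, so the 60 genes amount to 37 stretches of overlapping windows, of which 15 held an IDR summit.

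**Figure D3:**
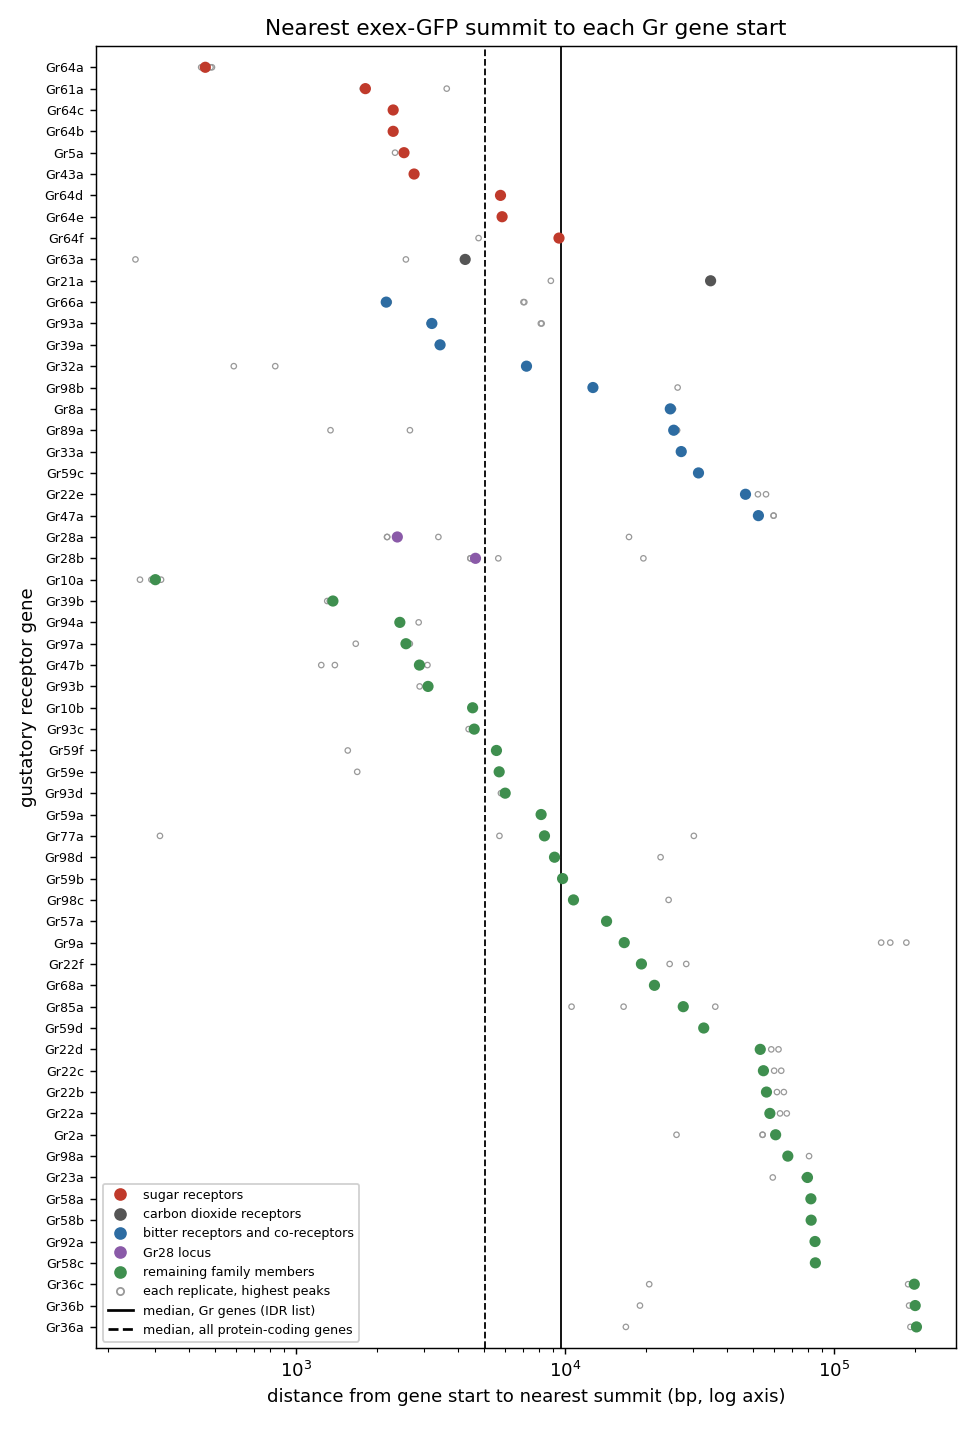
Distance (bp, log axis) from the start of each of the 60 Gr genes to the nearest summit, ordered within the role lists; filled points are the IDR list, open points the highest peaks of each replicate. The solid line marks the Gr median of 9638 bp and the dashed line the median of all protein-coding genes, 5025 bp; Gr64a and Gr10a are the filled points under 1000 bp, and the filled points of the Gr36 cluster lie near 200079 bp.

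The summits near Gr genes mostly belonged to other genes. A summit within 1000 bp of a TSS was assigned to the gene of the nearest TSS, another summit to the gene whose body held it, and an intergenic one to the gene with the nearest TSS. The 22 Gr genes shared 27 distinct IDR summits in 36 pairs of gene and summit, and 6 of the summits were counted for more than 1 Gr gene. Of the 27, 17 lay within 1000 bp of a TSS, against 54.9% of all IDR summits. Of these 17, 16 belonged to a gene outside the family alone. A further 5 lay in the body of another gene and 5 were intergenic. Their median IDR rank was 4624, and 14 were present in the highest peaks of all 4 replicates (51.9% of the 27), against 65.3% of all IDR peaks. For 15 of the 22 Gr genes every summit belonged to a gene outside the family, and Gr10b, Gr93c and Gr93d had only a summit assigned to another Gr gene. How often the summits near a gene belong to other genes was not counted over all genes. Of the 37 Gr genes with a TSS of a gene outside the family within 5000 bp, 17 had a summit, and of the 23 without one, 5 did. Over all genes the split counted the TSS of any other gene, members of the same family included. There 59.3% of genes with such a TSS within 5000 bp had a summit, and 34.8% of the others. A close neighbour thus went with more summits in general, although the splits are not alike.

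**Figure D4:**
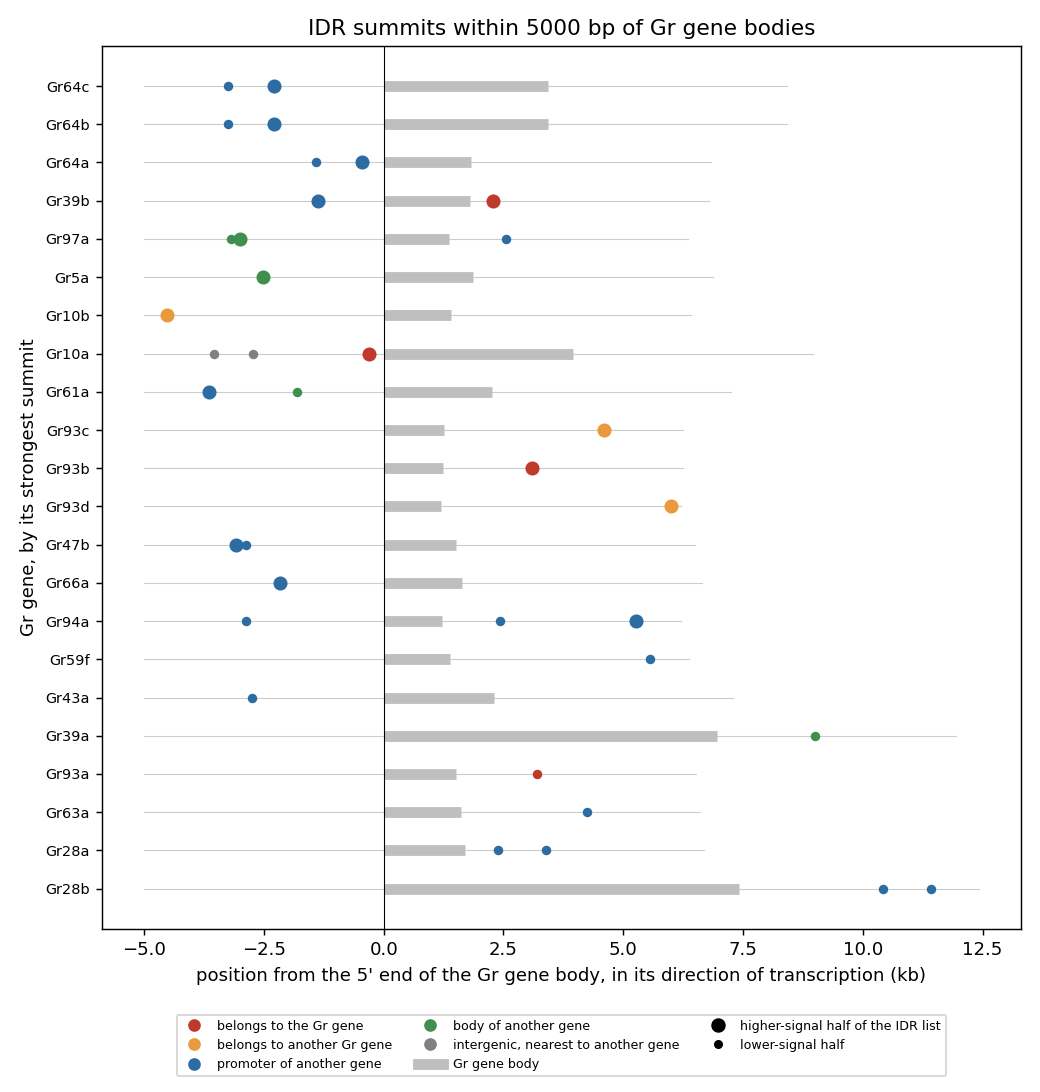
IDR summits (points) in and around the 22 Gr genes that had one, by position (kb) from the 5′ end of the Gr gene body (grey bar) in its direction of transcription, with thin lines for 5000 bp on each side; colour gives the gene to which the summit belongs and large points are the 3954 peaks of higher signal. No point lies on a grey bar, and the red points, which belong to the Gr gene itself, are at Gr39b, Gr10a, Gr93b and Gr93a.

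A summit belonged to the Gr gene itself for 4 of the 60 genes, against 13 for genes of like length and 27.4% of all genes. These were Gr39b, Gr93b and Gr93a alone, and Gr10a together with the odorant receptor gene Or10a. The Gr39b summit (rank 588, signal value 1510.0) was intergenic, 480 bp past the 3′ end of the gene (FBgn0041245, chromosome 2L, 21367908 to 21369706, minus strand, dm6). It ranked 550, 619, 636 and 636 in replicates 1 to 4, so all 4 libraries placed it at a similar height. The Gr10a summit (rank 2190) lay 300 bp upstream of the annotated start that Gr10a (FBgn0045502, chromosome X, 11413467 to 11417422, minus strand) has in common with Or10a, and it ranked 1791, 2321, 2902 and 3197 in replicates 1 to 4. Gr10a is known from olfactory neurons, where it is expressed together with Or10a. The Gr93b summit (rank 3489) was intergenic, 1850 bp past the 3′ end of the gene (FBgn0045470, chromosome 3R, 21842521 to 21843765, minus strand), and ranked 3151, 4313, 3657 and 4744. It was also the summit counted for Gr93c and Gr93d. The Gr93a summit (rank 5915) was intergenic too, 1687 bp past the 3′ end (FBgn0041229, chromosome 3R, 21832503 to 21834013, plus strand), and ranked 12138, 4555, 5108 and 11497, so it was among the highest peaks in replicates 2 and 3 and below them in replicates 1 and 4. Gr93a is a bitter receptor needed for the response to caffeine. Each of the 3 summits of a Gr gene alone thus lay behind the gene and none at its start.

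The bases under these summits are shown because they are the ones that belong to Gr genes. Each line gives the summit base with 50 bases on each side, on the plus strand of dm6, 5′ to 3′, and capitals mark TAATTA, a core sequence that many homeodomain proteins bind, and CTTATC or its reverse complement, a GATA-type sequence. The windows are chr2L:21367378-21367478 for Gr39b, chrX:11417672-11417772 for Gr10a with Or10a, chr3R:21840621-21840721 for Gr93b and chr3R:21835650-21835750 for Gr93a. Neither sequence occurs in the first 3 windows, and CTTATC occurs 1 time at Gr93a.
Gr39b: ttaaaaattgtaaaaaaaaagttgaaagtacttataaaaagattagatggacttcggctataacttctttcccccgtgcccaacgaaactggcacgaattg
Gr10a and Or10a: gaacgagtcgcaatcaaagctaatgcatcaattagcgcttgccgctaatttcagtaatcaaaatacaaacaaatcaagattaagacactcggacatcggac
Gr93b: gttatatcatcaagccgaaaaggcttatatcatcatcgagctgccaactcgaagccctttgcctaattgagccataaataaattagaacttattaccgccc
Gr93a: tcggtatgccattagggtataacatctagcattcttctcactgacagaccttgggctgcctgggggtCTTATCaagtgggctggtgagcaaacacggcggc

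Among the role lists, the sugar receptor genes had the shortest median distance to a summit. Of the 9 genes, 6 had an IDR summit in the window of body and 5000 bp, against 5.3 for genes of like length and 55.4% of all genes, and the median distance from start to summit was 2519 bp (460 to 9490 bp). Each of these summits lay in the promoter or body of a neighbour outside the family. The strongest IDR summit near any Gr gene (rank 438, signal value 1690.0) was counted for Gr64a, Gr64b and Gr64c, which adjoin in the Gr64 cluster, with 1 annotated span for Gr64b and Gr64c. It ranked 528, 530, 423 and 343 in replicates 1 to 4. It lay 460 bp upstream of Gr64a (FBgn0045479, chromosome 3L, 4026769 to 4028600, plus strand) and 298 bp from the TSS of CG11594, to which it was assigned as the nearer start. A weaker summit of CG11594 (rank 4687) lay 1416 bp upstream of Gr64a. Gr64f, the common partner of other sugar receptors, lay at the other end of the cluster, 9490 bp from a summit.

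Gr5a, the trehalose receptor (FBgn0003747, chromosome X, 5680617 to 5682488, plus strand), had 1 summit, rank 1484, in an intron of Tre1, a G-protein-coupled receptor gene known from germ cell migration. That summit lay 2519 bp upstream of Gr5a and ranked 1687, 1402, 1881 and 1094 in replicates 1 to 4. Gr61a, a receptor for glucose, had a summit at the promoter of CG13901 (rank 3279), 3643 bp upstream, and another in the 3′ UTR of CG13887 (rank 4624), 1810 bp upstream. The CG13901 summit ranked 4603, 4437 and 1477 in replicates 1, 3 and 4, and no peak of the complete replicate 2 list overlapped it. Gr43a, the fructose receptor that also acts in the brain, had a summit 2746 bp upstream that lay 25 bp from the TSS of the glyoxalase gene Glo1 (rank 5043).

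The carbon dioxide receptor genes lay apart from each other. Gr63a had 1 summit (rank 7143), 4252 bp from its start and 223 bp from the TSS of Fie, and it was among the highest peaks in replicates 2 and 3, with ranks 6175 and 5680, against ranks 13933 and 29372 in replicates 1 and 4. In replicate 1 a different summit lay 253 bp from the start of Gr63a, while the other replicates had none within 1000 bp of it. The gene to which that summit belongs was not determined. A TSS of a gene outside the family lies 297 bp from the start of Gr63a. Gr21a, its partner, had no IDR summit within 5000 bp, and the nearest was 34734 bp away. The number for genes of like length was 1.11 of these 2 genes.

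Bitter receptor genes were farther from summits. Of 11 genes, 3 (Gr66a, Gr39a and Gr93a) had a summit in the window, against 5.99 for genes of like length and 55.4% of all genes, and the median distance was 24602 bp (2164 to 52291 bp). Gr66a, a receptor widely used as a marker of bitter neurons, had a summit 2164 bp upstream (rank 3709) that lay 203 bp from the TSS of BI-1, the Bax inhibitor gene. It ranked 2821 and 2346 in replicates 3 and 4, and no peak of the complete lists of replicates 1 and 2 overlapped it, so this summit rested on 2 of the 4 libraries. Gr39a lies inside Mondo, which encodes a sugar-responsive transcription factor, and its 1 summit (rank 5797) lay in an intron of that host gene, 2058 bp past the 3′ end of Gr39a, with ranks 7456, 7579, 4390 and 6428. Gr33a, needed for many bitter responses, was 27014 bp from the nearest summit, and Gr32a was 7186 bp away. In replicates 2 and 4, however, a summit lay 587 and 837 bp from the start of Gr32a, against 7201 and 7171 bp in replicates 1 and 3. A TSS of a gene outside the family lies 953 bp from that start, and the gene to which these summits belong was not determined.

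Both genes of the Gr28 locus, whose products act in warmth and light sensing and in the larval response to ribonucleosides, had summits, against 1.2 of these 2 for genes of like length and 55.4% of all genes. These were the 2 summits at the promoter of santa-maria, a scavenger receptor gene of carotenoid transport, with IDR ranks 7321 and 7855. They lay 1696 and 687 bp past the 3′ end of Gr28a and 4002 and 2993 bp past that of Gr28b. Replicates 2, 3 and 4 had a summit in these windows and replicate 1 had none.

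The remaining 36 genes, to which no role is given here, had a summit in 10 cases, against 19.2 for genes of like length and 55.4% of all genes. Their median distance was 17902.5 bp. Gr39b had, beside its own summit, one at the promoter of CG8665 (rank 814), 1371 bp upstream, which ranked 941, 914, 786 and 805 in replicates 1 to 4. Gr97a had 3, of which 2 lay in an intron of CG5521 (ranks 1037 and 5320) and 1 at the promoter of the tetraspanin gene Tsp97E (rank 5374). The CG5521 summit of rank 1037 ranked 1014, 885, 956 and 3005, lowest in replicate 4, and both CG5521 summits share 1 called region and so the same replicate peaks. Gr10a had, beside the summit at its start, 2 intergenic summits nearest to the glutamine synthetase gene Gs2 (ranks 4549 and 5595), and Gr10b had only the summit of Gr10a and Or10a, 4532 bp upstream. Gr94a, which lies inside the tumour suppressor gene p53, had summits at the promoters of Ctns (rank 3872), the cystinosin gene, of p53 itself (rank 5360) and of CG17121 (rank 7363). Gr47b had 2 summits at the promoter of CG12384 (ranks 3629 and 6733) and Gr59f had 1 at the promoter of wmd (rank 4012). Several of these summits fell below the highest peaks of a replicate. In replicate 4 this held for p53 (rank 11487), CG12384 (11950 and 11850) and the Gs2 summit of IDR rank 5595 (14310). In replicate 1 it held for wmd (8888) and CG17121 (9608), and in replicate 3 for CG17121 (11851).

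The neighbour-owned summits with the 4 best ranks show what stood beside Gr64a, Gr39b, Gr97a and Gr5a. Each line again gives the plus strand of dm6 with 50 bases on each side of the summit, and the same use of capitals. The windows are chr3L:4026259-4026359 upstream of Gr64a, chr2L:21371027-21371127 upstream of Gr39b, chr3R:26969428-26969528 upstream of Gr97a and chrX:5678048-5678148 upstream of Gr5a. The Gr97a window holds TAATTA 1 time and CTTATC 2 times, the Gr64a and Gr5a windows hold CTTATC 1 time on 1 strand or the other, and the Gr39b window holds neither.
Gr64a, CG11594 promoter: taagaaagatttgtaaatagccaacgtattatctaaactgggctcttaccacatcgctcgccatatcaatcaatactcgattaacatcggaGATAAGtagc
Gr39b, CG8665 promoter: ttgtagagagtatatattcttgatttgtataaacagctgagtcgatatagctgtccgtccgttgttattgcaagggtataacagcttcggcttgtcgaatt
Gr97a, CG5521 intron: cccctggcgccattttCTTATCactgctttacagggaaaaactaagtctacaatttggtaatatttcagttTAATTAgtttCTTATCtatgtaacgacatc
Gr5a, Tre1 intron: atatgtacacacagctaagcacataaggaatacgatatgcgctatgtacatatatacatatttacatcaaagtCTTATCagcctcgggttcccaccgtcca

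TAATTA, which reads the same on both strands, occurred within 100 bp of 3 of the 27 summits near Gr genes (11.1%), against 1557 of all 7909 IDR summits (19.7%). CTTATC, searched on both strands and without overlap to TAATTA, occurred at 12 of 27 (44.4%), against 35.4% of all IDR summits. With 27 summits, 1 summit more or less moves these shares by several points.

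Weaker peaks inside Gr bodies were looked for in the complete lists of 30000 peaks. They placed a summit in the body of 1, 4, 3 and 6 Gr genes in replicates 1 to 4, against 11.3, 10.7, 11.6 and 21.0 for genes of like length and 31.8%, 30.6%, 31.8% and 46.8% of all genes. In all, 10 Gr genes had such a peak in some replicate and 3 had one in more than 1 replicate. Of the 18 peaks, 1 had a q-value under 0.01, and the best rank was 10705. Gr39a held that peak, at position 21296500 on chromosome 2L in replicate 3, with a −log10 q-value of 3.1, and had 3 further peaks in replicate 4 with ranks from 17516 to 29407. Gr21a had a peak in replicates 1, 2 and 3, with best ranks of 14445, 23149 and 14335. Gr89a had one in replicates 3 and 4 (ranks 14596 and 18771). Gr98a, Gr32a and Gr93a each had body peaks in replicate 4 alone, with best ranks of 18203, 20013 and 20390. The list called on pooled replicates held a body peak for Gr21a and Gr39a, 2 genes against 11.1 for genes of like length and 30.8% of all genes, and none of its 3 body peaks had a q-value under 0.01. In that list 41 Gr genes had a summit in the window of body and 5000 bp, against 43.9 for genes of like length and 75.1% of all genes. A summit within 1000 bp of an own TSS was present for 11 Gr genes in the pooled list, against 25.0 for genes of like length and 46.7% of all genes. The complete replicate lists had 10, 10, 12 and 11 such Gr genes, against 25.2, 23.4, 25.7 and 34.4 for genes of like length and 48.2%, 44.9%, 48.0% and 59.9% of all genes in replicates 1 to 4. In the complete lists the share of Gr genes with a summit in the window averaged 72.5% ± 7.98, against 79.0% ± 7.28 of all genes (SD, n = 4 each). Both shares of a replicate come from the same list, so these SDs do not measure the spread of the gap. The Gr share was the lower one in 4 of 4. It was 73.3%, 68.3%, 65.0% and 83.3% in replicates 1 to 4, against 76.9%, 74.0%, 75.4% and 89.8% of all genes.

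In the highest peaks of single replicates, 7 Gr genes had a summit in the window that the IDR list lacked. These were Gr32a, Gr59e, Gr64d, Gr64e, Gr64f, Gr77a and Gr89a, chosen after their values were seen. Gr32a and Gr89a had one in replicates 2 and 4, Gr77a in replicates 1 and 2, Gr59e in replicate 1, and Gr64d to Gr64f in replicate 4. Gr89a, a bitter receptor, had summits 1343 and 2650 bp from its start in replicates 2 and 4, against 26062 and 26028 bp in replicates 1 and 3. To which gene these replicate summits belong was not determined. Of all genes, 55.4% had an IDR summit in the window and 32.9% had none in any replicate. Genes with a summit in replicates but not in the IDR list were therefore not particular to the family.

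The other chemoreceptor families are given for comparison, without a test. Of 59 odorant receptor (Or) genes, 8 had an IDR summit in the window of body and 5000 bp, against 31.9 for genes of like length, and 0 had one in the body, against 5.62. Of 60 ionotropic receptor (Ir) genes, 21 had a summit in the window, against 34.9, and 2 in the body, against 8.3. The median distance to a summit was 9638 bp for Gr genes, 14948 bp for Or genes and 12050.5 bp for Ir genes. Low counts near genes and in bodies were thus seen in all 3 families. A list of 18 other genes of taste cells and taste transduction had a summit in the window in 9 cases, against 10.9 for genes of like length, in the body in 4, within 1000 bp of an own TSS in 5 and a summit of their own in 6. Out of 18 genes, these counts were near the shares of all genes, which were 55.4%, 18.1%, 28.2% and 27.4% for the 4 rules. A number for genes of like length was computed for the window alone. The 4 genes with a body summit, Plc21C, norpA, Itpr and trpl, are all longer than the median gene body of 2166 bp. Among them Plc21C and norpA, both phospholipase C genes, had summits of rank 127 and 559 in the window, and the co-receptor gene Ir25a had one of rank 1222, 26 bp from its start. Poxn, a Pax gene needed to form taste bristles, had none within 5000 bp. Neither did Ir76b, TrpA1, pain, ppk23, Ggamma1, Obp49a, Obp57d and Obp57e.

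The starts of the Gr genes were then searched for the same words, a search chosen after the summits had been seen. Windows ran from 250 bases before to 50 bases after each annotated start, and the 60 genes had 72 starts. TAATTA occurred at 38 of them (52.8%), against 18.9% of 19604 starts of all protein-coding genes. In a window 1000 bp farther upstream it occurred at 15.3% of Gr starts and 16.0% of all starts. Median GC content was 39.5% at Gr starts and 39.3% at all starts. Among the 36 distinct words of 6 bases made of A and T, counted with their reverse complements, TAATTA had the highest ratio of Gr share to share of all starts, 2.79, followed by ATTAAT with 1.76, and the median ratio was 0.929. CTTATC occurred at 23.6% of Gr starts and 18.4% of all starts. Counted per start, TAATTA was present in 42 copies, all before the start, at a median of 97 bases from it. Starts that coincide or lie close together share copies, so these are 38 distinct genome positions. The word was spread over 35 of the 60 genes and 20 of the 37 stretches. By role it was at a start of 5 sugar receptor genes, 0 carbon dioxide receptor genes, 3 bitter receptor genes, both Gr28 genes and 25 of the remaining genes. It was also more frequent than at all starts in Or genes (42.6% of 61 starts) and in Ir genes (33.3% of 66).

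The annotation of these starts differs from that of other genes. For 41 of the 60 Gr genes, against 3.74% of all genes, an annotated start was the first coding base, with no 5′ UTR, so the window lies just before the coding sequence rather than before a mapped transcript. Among starts of that kind TAATTA occurred at 65.9% of 41 Gr starts and at 32.6% of 522 starts of all genes. The difference was also seen among starts annotated in the same way, although the 522 include the 41 Gr starts. Whether the annotation accounts for part of the difference was not tested.

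Few Gr starts had a summit near them, with the word or without it. Of the 38 Gr starts with TAATTA, 1 (2.63%) had an IDR summit within 1000 bp, that of Gr64a, against 2.94% of the Gr starts without it, 31.2% of all starts that hold it and 28.7% of all starts that do not. Among starts at the first coding base, the share with a summit was 3.7% for Gr starts that hold TAATTA and 5.29% for all such starts that hold it, which is closer than the shares over all starts. Of the 35 Gr genes with the word at a start, 25 had no IDR summit in the window of body and 5000 bp. In the whole family 36.7% of the 60 genes had one, against 55.4% of all genes. This window was not counted for all genes with the word, so the count does not set the word apart. No homeodomain protein is identified by these letters, and a match is not a measured site. The bars of words and summits at gene starts give the shares with the word and with a summit within 1000 bp for each family.

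**Figure D5:**
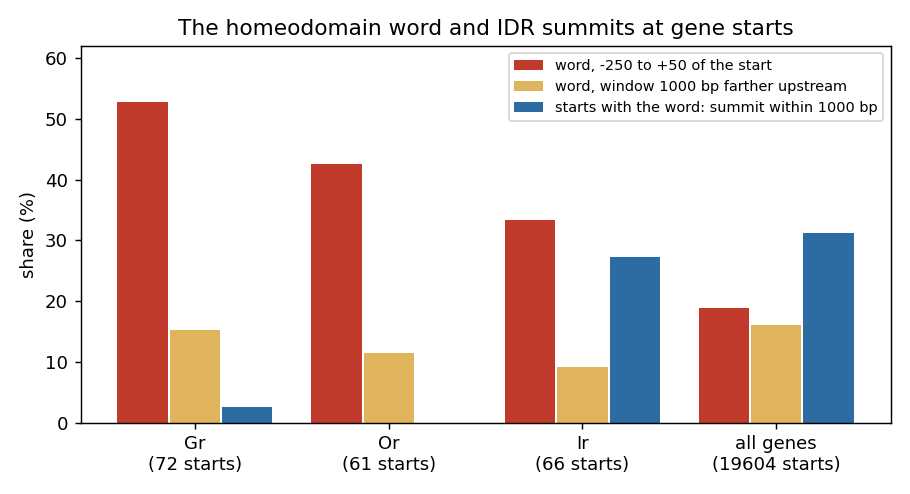
Share (%) of annotated gene starts that hold TAATTA from 250 bases before to 50 after the start, that hold it in a window 1000 bp farther upstream, and, among starts that hold it, that have an IDR summit within 1000 bp, for Gr, Or and Ir genes and all protein-coding genes. Gr starts are at 52.8% for the word and 2.63% for the summit, and all starts at 18.9% and 31.2%.

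Windows of 3 genes are shown, 2 with several copies of the word and 1 with a summit near the start. Gr98d (chr3R:27545802-27546101, plus strand, nearest summit 9134 bp away) had 3 copies, the most of any Gr start, Gr22a (chr2L:1794868-1795167, minus strand, 57682 bp away) had 2, as did Gr59d, which is not shown, and Gr64a (chr3L:4026519-4026818, plus strand, 460 bp away) had 1. Each line gives 300 bases of dm6 on the strand of the gene, 5′ to 3′, with capitals for TAATTA, and the last 50 bases begin at the first coding base.
Gr98d: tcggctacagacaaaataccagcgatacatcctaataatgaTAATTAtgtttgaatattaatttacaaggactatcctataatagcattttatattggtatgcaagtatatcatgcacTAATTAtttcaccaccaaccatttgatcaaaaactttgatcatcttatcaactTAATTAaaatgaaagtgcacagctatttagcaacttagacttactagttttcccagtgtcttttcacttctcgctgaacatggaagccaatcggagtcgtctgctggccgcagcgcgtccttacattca
Gr22a: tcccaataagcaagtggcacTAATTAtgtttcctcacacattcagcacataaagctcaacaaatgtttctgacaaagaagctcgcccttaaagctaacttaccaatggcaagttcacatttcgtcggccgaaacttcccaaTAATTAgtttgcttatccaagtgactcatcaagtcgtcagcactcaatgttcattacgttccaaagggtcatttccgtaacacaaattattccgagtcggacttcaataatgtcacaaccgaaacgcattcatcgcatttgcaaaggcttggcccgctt
Gr64a: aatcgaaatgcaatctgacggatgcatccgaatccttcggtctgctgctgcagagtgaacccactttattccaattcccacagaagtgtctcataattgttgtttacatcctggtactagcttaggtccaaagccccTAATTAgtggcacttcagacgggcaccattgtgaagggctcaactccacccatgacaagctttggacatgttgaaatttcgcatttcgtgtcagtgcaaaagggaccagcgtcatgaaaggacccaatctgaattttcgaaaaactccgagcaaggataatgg

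Across the chromosome arms, Gr genes with a summit in the window of body and 5000 bp numbered 4 of 17 on 2L, 3 of 13 on 2R, 6 of 11 on 3L, 6 of 13 on 3R and 3 of 6 on X. The shares of all genes on these arms were 54.7%, 57.0%, 57.5%, 56.5% and 51.3%. The Gr share was lower than that of all genes on each of the 5 arms, by the least on X and 3L. Clusters in which no gene had a summit in the window included Gr22a to Gr22e with 5 genes on 2L and the Gr36, Gr58 and Gr98b to Gr98d clusters with 3 genes each. The Gr93 cluster of 4 genes and the Gr64 cluster of 6 genes each held 2 IDR summits, with none in the windows of Gr64d, Gr64e and Gr64f.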

How the data were processed

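Anti-GFP ChIP-seq peak lists on dm6 were analysed for 4 biological replicates of 1 group. Per the deposited lists of files, each replicate list and the pooled list came from the alignments and 1 further input shared by all, and the IDR list came from those lists. The sources used here do not give the aligner, caller or IDR cutoff. Signal tracks and the control experiment named in the labels were not analysed here. The signal value is a score deposited by the authors, used to rank peaks inside each list. Each q-value was deposited on a −log10 scale and served to count peaks with q under 0.01. The summit is the deposited offset from the peak start. All replicate lists have a fixed length of 30000 peaks, so each was represented by its 7909 highest-signal peaks. Read depth is unknown, so no counting interval is given.

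Genes came from Ensembl release 115 (BDGP 6.54). Peaks and genes lay within the chromosome ends of Release 6. Windows were the gene body and 5000 bp on each side. Gene ownership and the length comparison in 20 classes are described with the results. The comparison is a weighted share and not a test, and no p-value was computed. The counting was tested on simulated data. The members, lists and settings were chosen with earlier results of these data known, and the search of gene starts after the summits had been seen. Named were Gr genes with a summit in the body, at an own TSS or of their own, the 12 with the strongest summits, up to 4 of each role list, and up to 6 with body peaks in replicates alone, and further genes where a count called for them. A replicate listed a summit when one of its peaks overlapped the IDR peak by at least 1 bp. Leaving out a replicate meant keeping those IDR peaks that had an overlapping highest-signal peak in all 3 others, as the filter could not be rerun. Other settings were windows of 2000 and 10000 bp, the 3954 IDR peaks of higher signal, 1 summit per region, 10 or 40 length classes, a TSS window of 500 bp, genes of all biotypes, complete replicate lists, a 50% reciprocal overlap and stretches of overlapping windows. The pooled list, counts in bodies and at own TSSs in the complete replicate lists, and a comparison by the number of neighbouring TSSs were added after seeing the data. Computation used matplotlib 3.10.9 for figures, scipy 1.17.1, and pandas 2.3.3 with numpy 2.4.6 under Python 3.11.15.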

Additional observations from a re-analysis of the deposited data

Results flagged for a closer look

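The median distance from a Gr start to the nearest of the highest peaks was 11676 bp in replicate 1, apart from 9336, 9659 and 9315.5 bp in replicates 2 to 4. It was 1 of 8 Gr measures examined in this way over the 4 replicates. Chance sets a value apart in about 1 in 20 groups. The median over all genes in replicate 1 was 5174 bp, against 5627, 5064 and 4015 bp in replicates 2 to 4, so it did not stand apart there.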

How the results depend on the processing

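The count of Gr genes with a summit in the body stayed at 0 in the IDR list under the alternatives run on it, and was 2 in the pooled list and 1, 4, 3 and 6 in the complete lists of replicates 1 to 4. The 22 Gr genes with a summit in the body and 5000 bp on each side became 9 with 2000 bp, 41 in the pooled list and 14 to 16 when a replicate was left out. The 32.8 for genes of like length became 23.6 with 2000 bp, 41.0 with 10000 bp, 23.5 in the 3954 peaks of higher signal, 43.9 in the pooled list and 25.2 to 26.7 without a replicate. The Gr count was below it in each of these settings. Longer lists reach more genes, and shorter windows and lists fewer. With as many TSSs of other genes, neighbouring Gr genes counted among them, the number was 31.4. The median distance of 9638 bp became 23439.5 bp in the peaks of higher signal and 13474 to 20516 bp without a replicate, where the lists are shorter (5339 to 5982 peaks). The mean share of 38.3% was 36.7% to 40% without a replicate and became 72.5% in the complete replicate lists. There the gap to the 79.0% of all genes was narrower than in the highest peaks. Of the 27 summits, 9 were present in all 4 replicates under a 50% reciprocal overlap and 25 in the complete lists, against 14. The 2 Gr genes with a summit at an own TSS stayed at 2 in the IDR list and became 11 in the pooled list and 10, 10, 12 and 11 in the complete lists of replicates 1 to 4. The 4 with a summit of their own stayed at 3 or 4 under the alternatives run on the IDR list. For stretches of overlapping windows no number for genes of like length was computed. No paired analysis between conditions was possible because the series has 1 group. Precision is limited by 60 genes, 27 summits and unknown read depth. A summit of a list is a call above a limit, so weaker binding below it was not measured here.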
